A study of Homo sapiens with 4 samples.

Results

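The proteasome is the protease complex that degrades proteins tagged with ubiquitin in the cytosol and nucleus. The genes described here were every gene whose symbol was PSMA, PSMB, PSMC, PSMD, PSME, PSMF or PSMG followed by a number, taken from the deposited expression tables. This gave 46 subunit genes of 16878 genes listed. The start of the pattern matched 47 symbols, and the extra symbol, PSMC3IP, was left out because it encodes a meiotic recombination cofactor and no proteasome subunit. All 46 genes averaged 1 FPKM or more and were tested, so no subunit gene was lost to the filter on low values. FPKM is a fragment count divided by transcript length in kilobases and by library size, so that levels of different genes can be compared per length.

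RNA was sequenced from PANC-1, an established human cell line of pancreatic ductal carcinoma. There were 2 Control libraries and 2 siSIRT1 libraries, the latter from cells in which SIRT1, a NAD-dependent protein deacetylase, had been targeted with a small interfering RNA. Cells were studied 48 h after transfection, and all 4 libraries came from the same line with no other treatment named. Nothing in the labels says that the replicates were separate cultures, so p-values measure only the spread between these libraries, which may be technical.

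The proteasome has a barrel-shaped core and regulatory caps. The core consists of outer rings of alpha subunits, which gate the channel, and inner rings of beta subunits, some of which carry the proteolytic sites. The standard cap has a base, whose ATPases unfold the substrate, and a lid, which removes the ubiquitin chain, while other activators, an inhibitor and dedicated assembly chaperones are encoded by the PSME, PSMF and PSMG genes. Cells exposed to interferon replace the constitutive catalytic beta subunits with inducible ones to form the immunoproteasome, which generates peptides for antigen presentation.

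SIRT1 measured 10.5 and 10.3 FPKM in the Controls against 1.80 and 2.05 with siSIRT1. The siSIRT1 libraries were thus well below both Controls, a change of -1.96 ± 0.11 on the log2 scale (SE, n = 2 per group) at adjusted p = 1.33e-05 (limma, Benjamini-Hochberg). Steps in the low FPKM values put the depth at about 8690000 to 9120000 reads per library, an estimate that the tables do not state. Pearson's r of log2 levels between replicates, across genes, was 0.995 in Control and 0.993 in siSIRT1. The epithelial keratin KRT18 averaged 1536 FPKM and KRT19 averaged 320 FPKM in Control, while KRT7 was low at 3.47 FPKM. With siSIRT1, KRT18 rose by 0.26 and KRT19 by 0.25 on the log2 scale, and the mesenchymal marker VIM fell by 0.53 from 2123 FPKM. The changes of KRT8 (0.25, adjusted p = 0.0513, limma) and KRT7 (-0.10, adjusted p = 0.647) did not pass the threshold of 0.05. Of 5 markers of other cell types analysed, CPA1 and PRSS1 of acinar cells were at 0 in both siSIRT1 libraries. They were also near 0 in Control, at 0 and 0.08 FPKM (CPA1) and 0.15 and 0 FPKM (PRSS1). PECAM1 of endothelium lay at 0.59 to 0.75 FPKM and PTPRC of leukocytes at 0.970 to 1.29 FPKM. COL3A1 of fibroblasts rose from 4.06 to 19.1 FPKM. The part of these markers in the results was not tested. In bulk RNA a change in the number of cells of a type and a change in RNA per cell cannot be told apart.

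The proteasome genes were on balance higher in the siSIRT1 libraries. The test was limma on log2(FPKM + 1), with p-values adjusted over all 12191 genes tested and a threshold of 0.05, and fold changes are on that scale. By this test 23 of the 46 genes (50%) rose, against 24.0% of all genes tested. PSMG4 was the only subunit gene that fell (2.17%), against 13.1% of all genes. The median log2 fold change over the 46 genes was 0.22, against 0.07 over all genes. The median change in mean FPKM, without the pseudocount, was 16.9%, against 6.24% over all genes. Of the 46 genes, 42 had a fold change above 0, against 60.1% of all genes. Both siSIRT1 libraries lay above both Control libraries for 37 genes (80.4%), where the share among all genes was 43.8%, and below both for 2 genes, where it was 25.2%. The other 22 genes did not pass the test, with log2 fold changes from -0.18 to 0.23 and adjusted p-values from 0.0546 to 0.589.

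**Figure D1:**
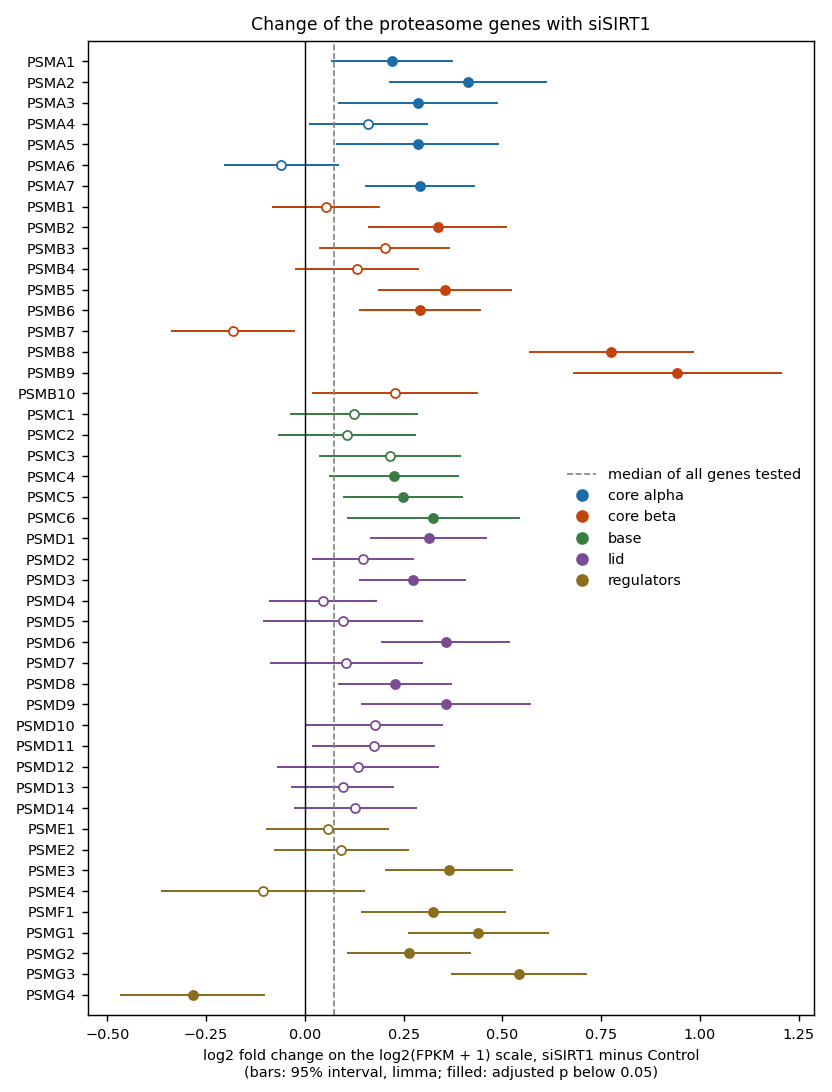
Log2 fold change (siSIRT1 minus Control, log2(FPKM + 1) scale) of the 46 proteasome genes, with 95% intervals from limma, coloured by group. Filled points passed the test at an adjusted p below 0.05, and 23 of the 24 filled points lie to the right of 0, with PSMB9 and PSMB8 farthest out and PSMG4 alone on the left.

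The size of the rise depended on how the libraries were scaled. The deposited values put 95.8% of the calls among proteasome genes, and 64.8% of the calls among all genes, on the higher side. After median-of-ratios scaling, which centres the libraries on their typical gene, 12 proteasome genes were higher and 2 were lower (85.7% of calls higher), and for all genes the split was 50.1%. The share of the 46 genes called higher was then 26.1%, against 16.7% of all genes, and the median was 0.14. Short transcripts also rose more often than long ones in these libraries: 42.7% of all genes under 1000 bases were called higher against 14.9% of those of 4000 bases or more, and the proteasome genes had a median length of 1494 bases against 3283. With the trend on length removed, 12 proteasome genes were higher (26.1%, all genes 18.8%), 4 were lower (8.7%, all genes 19.5%), and the median was 0.086. Within classes of length, the subunit genes called higher were 3 of 11 under 1000 bases (27.3%, all genes 42.7%), 12 of 19 from 1000 to 2000 bases (63.2%, all genes 34.0%) and 6 of 10 from 2000 to 4000 bases (60%, all genes 26.1%). Among subunit genes of 4000 bases or more, 2 of 6 rose (33.3%).

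Of the 23 genes called higher, 10 stayed called under all 13 other ways of processing the values. These were PSMB2, PSMB5, PSMB8, PSMB9, PSMD1, PSMD6, PSMD9, PSME3, PSMG1 and PSMG3. PSMB5, PSMB8, PSMB9, PSMD6, PSMG1 and PSMG3 also stayed called when any 1 library was left out. The other 13 genes lost the call under at least 1 setting, among them all of the core alpha genes called and all of the ATPases called. Without Control replicate 1 the number of genes called higher was 11 (23.9%, all genes 14.2%). Without Control replicate 2 it was 7, and this share of 15.2% was close to the 14.1% of all genes called higher in that fit.

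**Figure D2:**
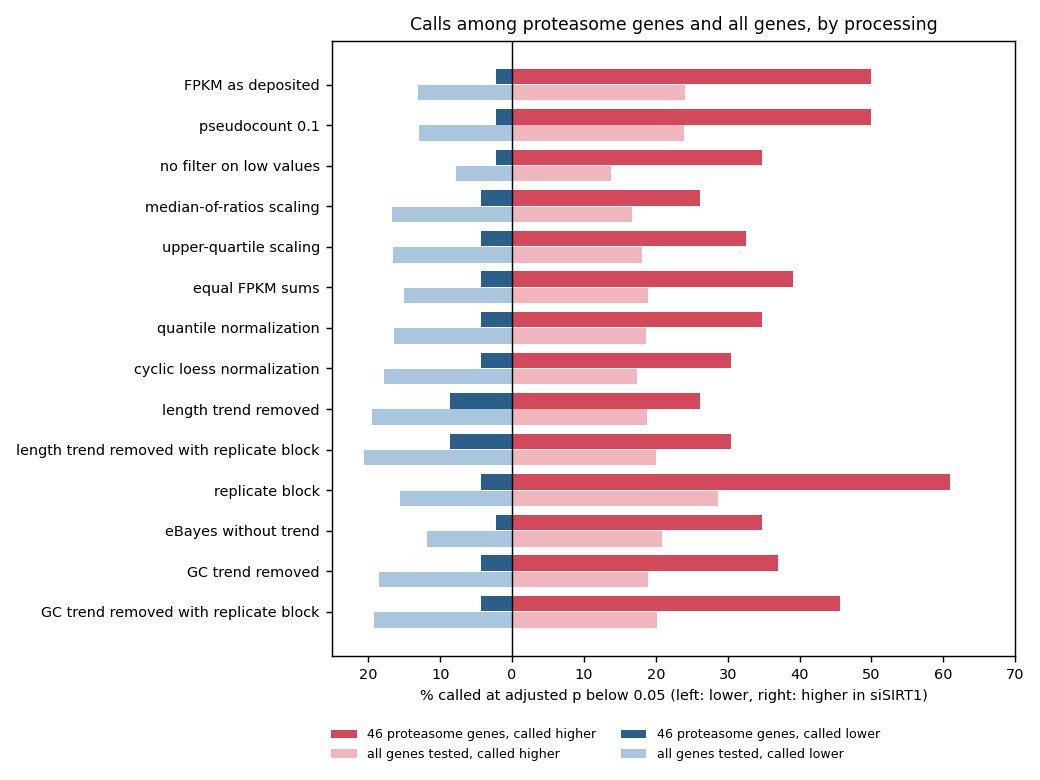
Share of the 46 proteasome genes and of all genes tested that were called higher (to the right of 0) or lower (to the left) in siSIRT1 at an adjusted p below 0.05, for the deposited FPKM and for 13 other ways of processing them, without the fits that left out a library. The proteasome share called higher ranges from 26.1% to 60.9% and is above that of all genes in every setting drawn, and the share called lower is below that of all genes in each.

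Promoter sequences were read for the windows that RefSeq annotation of GRCh38.p14 gives from 250 bases before to 50 bases after the listed start, with 40 of the 46 genes matched. For the 8 genes with several listed starts, the start listed first was used. Motifs were searched on both strands, and matches of different motifs did not overlap in these windows. The core of the antioxidant response element, TGACNNNGC, the kind of site bound by NRF1 (NFE2L1) and NRF2 with small MAF partners, matched in 13 of the 40 windows (32.5%), against 15.1% of the windows of 9888 genes tested. The share was 35% among the 20 windows of genes that rose and 31.6% among the 19 of genes that did not pass the test. The matches in genes that rose are given here with 8 flanking bases where the window holds them, the motif in capitals and the position of its first base from the start in parentheses.
PSMB9 (-148): gcggggctGCCTCGTCActtgtctc
PSMC4 (27): agaggccgGCTTGGTCActatggag
PSMD1 (39): gaggcgacTGACTGAGCag
PSMD3 (-37): ccctttgtTGACTCGGCcatcggcc
PSMD3 (33): ttgcagctGCTCCGTCAtcgtgcgg
PSMD9 (-149): ctactcctGCCGGGTCAccacaggc
PSMD9 (-102): gcttccggTGACCCAGCtccgccct
PSMG1 (-183): ccagggcaTGACAGCGCgggcgggc
PSMG2 (-39): gtttcccgTGACCCCGCggccgctc
A match is a run of letters and does not show that a factor was bound there.

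The CCAAT box, the site of the factor NF-Y, matched in 18 of the 40 windows (45%), against 36.8% of all windows. It was present in 12 of 20 windows of genes that rose (60%) and in 6 of 19 windows of genes that did not pass the test (31.6%). The core alpha genes PSMA3 and PSMA5 held 2 matches each, shown here with the box in capitals as it reads on the gene's strand, either way round.
PSMA3 (-35): aaaaggttATTGGttggcagt
PSMA3 (-18): cagttcagCCAATgagcgggc
PSMA5 (-83): gcgttggcCCAATcacctagg
PSMA5 (-54): actaccagCCAATaggaagca
The ETS core CCGGAAG matched in 12 windows (30%, all windows 19.9%), none of them of a core gene. The gamma-activated site TTCNNNGAA, a site of STAT factors, matched in 4 windows (10%, all windows 6.19%), those of PSMA2, PSMC4, PSMD3 and PSME3.

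Levels of the subunit genes spanned a wide range. Mean Control levels ran from 7.18 FPKM for PSMB9 to 932 FPKM for PSMC4, with a median of 35.6 FPKM against 10.01 FPKM for all genes tested. The gene next below PSMC4 was PSMB4, a structural beta subunit, at 191 FPKM. Together the 46 genes held 0.815% and 0.807% of the summed FPKM in the Control libraries and 0.898% and 0.887% in the siSIRT1 libraries. Without PSMC4 the shares were 0.580% and 0.576% in Control and 0.633% and 0.629% in siSIRT1, so that the siSIRT1 libraries were the higher ones either way. Genes below the median level had a median log2 fold change of 0.29, and 14 of these 23 rose. Genes above it had a median of 0.16, and 9 of these 23 rose. Among all genes tested, 24.0% were called higher.

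**Figure D3:**
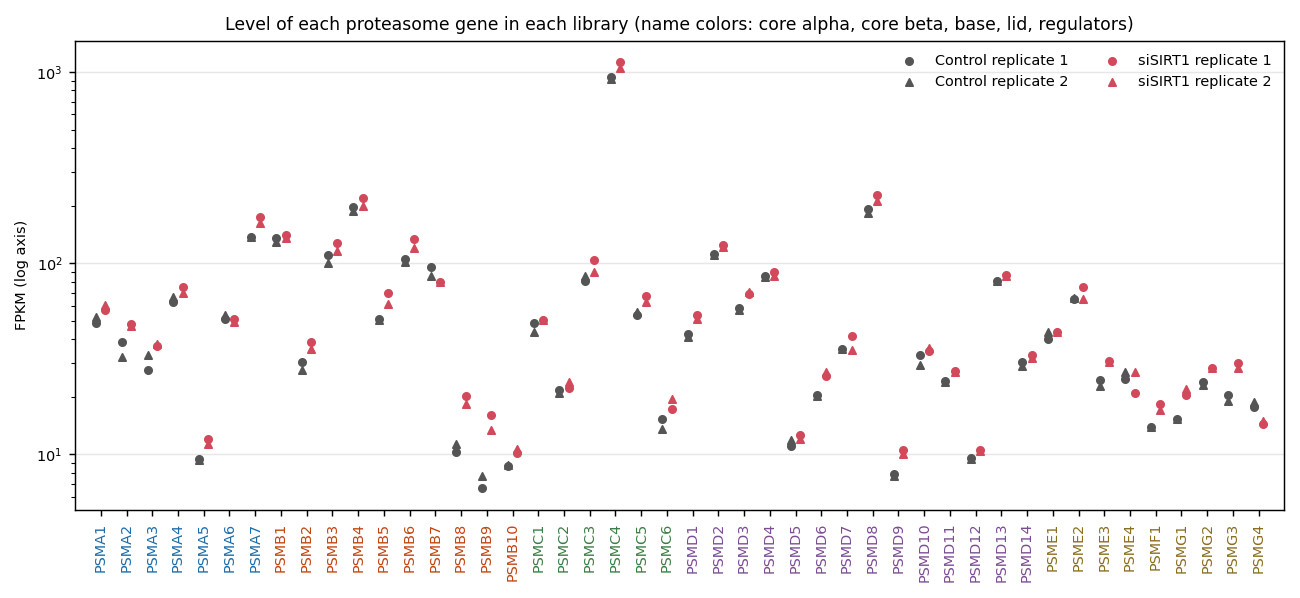
FPKM (log axis) of the 46 proteasome genes in each of the 4 libraries, with gene names coloured by group and a point per library. PSMC4, near 1000 FPKM, stands apart from the other genes in all 4 libraries, and the siSIRT1 points lie above the Control points for 37 genes.

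The alpha subunits form the outer rings of the core and gate entry to it. Of 7 genes, 5 rose (71.4%, all genes 24.0%) and none fell (all genes 13.1%), with a median log2 fold change of 0.29. PSMA2 measured 38.8 and 32.4 FPKM in the Controls against 48.0 and 47.0 with siSIRT1, a change of 0.41 ± 0.09 (SE) on the log2 scale at adjusted p = 0.00635. PSMA7, the most abundant of the group, measured 137 and 137 FPKM in the Controls against 173 and 162 with siSIRT1, a change of 0.29 ± 0.06 on the log2 scale at adjusted p = 0.00575. For both genes the groups were clearly apart, and the siSIRT1 libraries were high. PSMA1, PSMA3 and PSMA5 also rose, by 0.22 to 0.29 on the log2 scale, but each of these calls held under only 3 of the 13 other settings. PSMA4 (0.16) and PSMA6 (-0.06) did not pass the test, and PSMA6 overlapped between the groups.

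The call for PSMA7 was lost after median-of-ratios scaling and after removal of the length trend, and that for PSMA2 when genes of low level were kept in the fit. Nearly all of the exonic sequence of PSMA2 (94.7%) is shared in the GENCODE annotation with a read-through gene on the same strand, so its reads may have been split between the entries.

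The beta subunits form the inner rings. Of 10 genes, 5 rose (50%, all genes 24.0%) and none fell (all genes 13.1%), with a median log2 fold change of 0.26. The largest changes of all proteasome genes were those of 2 inducible subunits. PSMB9, the inducible subunit that replaces PSMB6, measured 6.65 and 7.71 FPKM in the Controls against 16.1 and 13.4 with siSIRT1. Its mean FPKM was 105% higher. The change on the log2(FPKM + 1) scale was 0.94 ± 0.11 (SE, 95% interval 0.68 to 1.21) at adjusted p = 0.000454. PSMB8, which replaces PSMB5, measured 10.3 and 11.4 FPKM in the Controls against 20.2 and 18.4 with siSIRT1. Its mean FPKM was 77.8% higher. The change on the log2(FPKM + 1) scale was 0.78 ± 0.09 (95% interval 0.57 to 0.98) at adjusted p = 0.000366. Both genes were far apart between the groups, with the siSIRT1 libraries high, and both were called under each setting tried. PSMB10, which replaces PSMB7, measured 8.74 and 8.76 FPKM in the Controls against 10.2 and 10.6 with siSIRT1. The siSIRT1 libraries were again the higher ones, but the log2 fold change of 0.23 ± 0.09 did not pass the test (95% interval 0.02 to 0.43, adjusted p = 0.0793).

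The constitutive catalytic subunits moved less than PSMB8 and PSMB9, while PSMB5 and PSMB6 moved more than PSMB10. PSMB5, which carries the chymotrypsin-like site, measured 51.3 and 50.2 FPKM in the Controls against 69.5 and 61.1 with siSIRT1, a change of 0.36 ± 0.07 (SE) on the log2 scale at adjusted p = 0.00581. PSMB6, which carries the caspase-like site, measured 105 and 102 FPKM in the Controls against 133 and 120 with siSIRT1, a change of 0.29 ± 0.07 on the log2 scale at adjusted p = 0.00915. Both rose with no overlap, although the call for PSMB6 was lost after median-of-ratios scaling, after removal of the length trend and without the variance trend of limma. PSMB7, which carries the trypsin-like site, measured 95.4 and 85.4 FPKM in the Controls against 79.3 and 79.6 with siSIRT1. Here the siSIRT1 libraries were the lower ones, and the log2 fold change of -0.18 ± 0.07 did not pass the test (adjusted p = 0.0654), whereas it passed as lower under 10 of the 13 other settings and in none of the fits that left out a library.

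The ratio of the inducible to the constitutive gene at the same site does not depend on the scaling factor of a library. PSMB9 was 6.33% and 7.60% of PSMB6 in Control and 12.1% and 11.2% in siSIRT1. PSMB8 was 20.1% and 22.7% of PSMB5 in Control and 29.0% and 30.1% in siSIRT1. PSMB10 was 9.16% and 10.3% of PSMB7 in Control and 12.9% and 13.4% in siSIRT1. At each of the 3 sites both siSIRT1 libraries lay above both Control libraries, and the inducible gene was the minor one in every library. No test was run on these ratios.

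**Figure D4:**
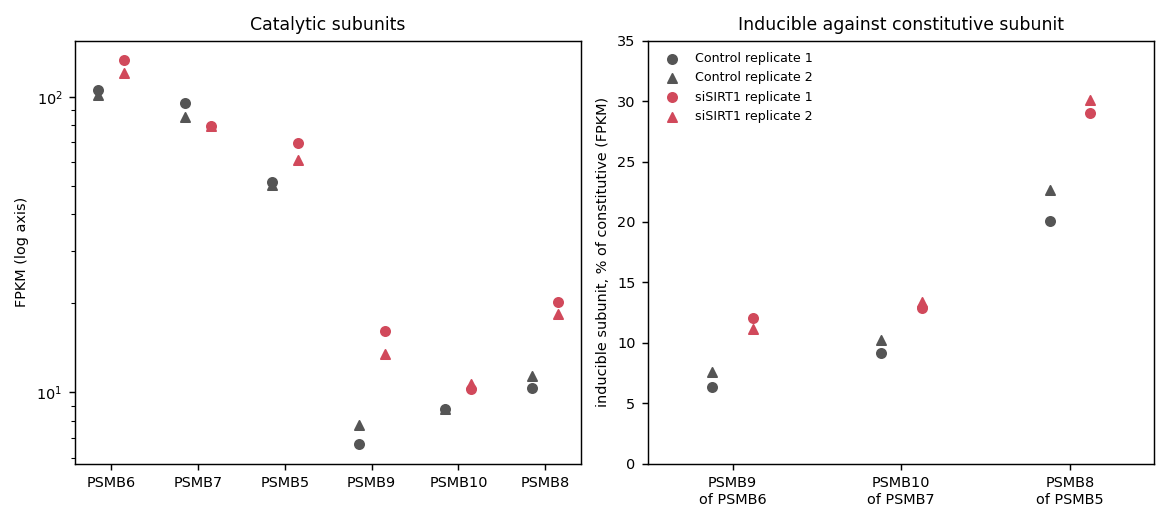
Left, FPKM (log axis) of the constitutive (PSMB6, PSMB7, PSMB5) and inducible (PSMB9, PSMB10, PSMB8) catalytic subunit genes in each library. Right, the inducible gene as a percentage of its constitutive counterpart, with all siSIRT1 points above all Control points at each of the 3 sites, for instance 11.2% and 12.1% against 6.33% and 7.60% for PSMB9 of PSMB6.

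PSMB8 and PSMB9 lie close together in the MHC class II region of chromosome 6. PSMB8 is at chr6:32808494-32812456 on the minus strand and PSMB9 at chr6:32811913-32827628 on the plus strand (GRCh37, GENCODE). Their annotated spans overlap at the ends, but the exons of their protein-coding transcripts do not. TAP1, the peptide transporter subunit gene that shares a promoter region with PSMB9, starts 488 bases from the PSMB9 start on the opposite strand in the RefSeq annotation. In the RefSeq annotation the TAP1 start lies between those of PSMB8 and PSMB9, 9025 bases from the PSMB8 start. The GENCODE span places the PSMB9 start elsewhere, 9680 bases from that of TAP1, and TAP1 is then not between them. TAP1 measured 28.9 and 27.7 FPKM in the Controls against 44.5 and 41.5 with siSIRT1, and it rose by 0.59 ± 0.07 (log2, SE) with an adjusted p of 0.000374. The 250 bases before the PSMB9 start are chr6:32853942-32854191 on the plus strand of GRCh38.p14. They are shown because this stretch lies between the RefSeq starts of TAP1 and PSMB9, both of which rose. Capitals mark the CCAAT box (-243) and the antioxidant response element core (-148).
PSMB9: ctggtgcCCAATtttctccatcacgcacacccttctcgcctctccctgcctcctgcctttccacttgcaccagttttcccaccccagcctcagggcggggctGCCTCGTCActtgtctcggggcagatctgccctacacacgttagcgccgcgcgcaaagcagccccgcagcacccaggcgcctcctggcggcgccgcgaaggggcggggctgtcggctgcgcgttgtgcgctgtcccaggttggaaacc
TAP2, the partner of TAP1 in the transporter, measured 38.8 and 36.8 FPKM in the Controls against 42.7 and 40.5 with siSIRT1 and did not pass the test (log2 fold change 0.14, adjusted p = 0.143).

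Of the remaining 4 beta subunits, which are structural and not catalytic, PSMB2 rose. It measured 30.6 and 27.8 FPKM in the Controls against 38.5 and 35.6 with siSIRT1, with both siSIRT1 libraries high (log2 fold change 0.34 ± 0.08, adjusted p = 0.00888). PSMB1, PSMB3 and PSMB4 had log2 fold changes from 0.05 to 0.20 and did not pass the test. With the length trend removed all 3 were below 0, and PSMB1, at -0.15, then passed as lower.

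The ATPases of the base unfold substrates and open the gate of the core. Of 6 genes, 3 rose (50%, all genes 24.0%) and none fell, with a median log2 fold change of 0.22. All 6 had both siSIRT1 libraries above both Controls, as did 43.8% of all genes. PSMC4 measured 943 and 920 FPKM in the Controls against 1127 and 1055 with siSIRT1, a change of 0.23 ± 0.07 (SE) on the log2 scale at adjusted p = 0.0351. PSMC5 (0.25, adjusted p = 0.0170) and PSMC6 (0.33, adjusted p = 0.0264) were the other ATPase genes that rose. PSMC1, PSMC2 and PSMC3 ranged from 0.11 to 0.22 and did not pass the test. These calls were lost under 7 of the 13 other settings for PSMC4 and under 9 each for PSMC5 and PSMC6, median-of-ratios scaling among them. In the annotation 82.7% of the exonic sequence of PSMC1 overlaps NRDE2 on the opposite strand, and whether the counting used strand is not stated in the sources used here.

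PSMC4 was 64.2 times as abundant as PSMC6 in Control, and the next ATPase gene, PSMC3, stood at 82.9 FPKM. PSMC4 ranked 29 of the 12191 genes tested. It lies at chr19:40477072-40487671 on the plus strand (GRCh37, GENCODE), and its neighbours were examined after its level had been seen. The 41 other tested genes that start within 1000 kb of it had a median Control level of 47.5 FPKM, against 10.9 FPKM for the 944 tested genes on the rest of chromosome 19 and 9.95 FPKM on other chromosomes. In this neighbourhood 10 genes (24.4%) stood at 200 FPKM or more, against 3.60% on the rest of the chromosome and 1.97% elsewhere. Among them were SUPT5H (541 FPKM) and PAF1 (502 FPKM), both transcription elongation factor genes, and AKT2, a protein kinase gene (456 FPKM). Of these 41 genes, 11 rose (26.8%, close to the 24.0% of all genes) and 8 fell in siSIRT1 (19.5%, all genes 13.1%). PSMD8, which had the highest level among the lid genes (188 FPKM in Control), lies on the same chromosome at chr19:38865203-38874490.

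**Figure D5:**
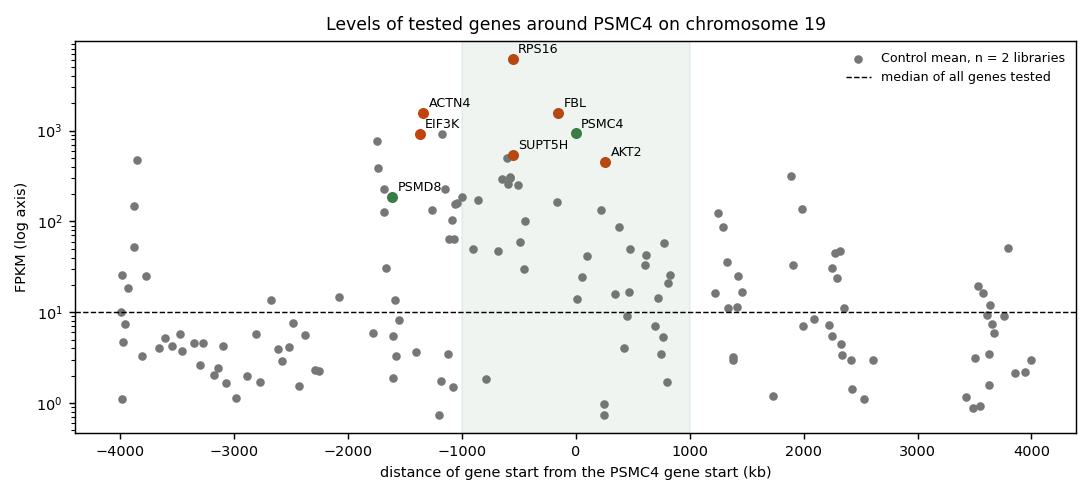
Mean Control FPKM (log axis, n = 2 libraries) of tested genes on chromosome 19 against the distance of their starts from the PSMC4 start in kb, with the 1000 kb on either side shaded. Genes in the shaded span have a median of 47.5 FPKM, and most lie above the median of all genes (dashed line, 10.01 FPKM).

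The PSMD genes encode the lid, the non-ATPase subunits of the base (PSMD1 and PSMD2) and assembly chaperones of the base (PSMD5, PSMD9 and PSMD10). Of 14 genes, 5 rose (35.7%, all genes 24.0%) and none fell (all genes 13.1%). The median log2 fold change of 0.16 was the lowest of the 5 groups. PSMD6, a lid subunit, measured 20.5 and 20.2 FPKM in the Controls against 25.8 and 26.8 with siSIRT1, a change of 0.36 ± 0.07 (SE) on the log2 scale at adjusted p = 0.00463. PSMD1, the scaffold of the base, measured 42.5 and 41.3 FPKM in the Controls against 53.9 and 50.8 with siSIRT1, a change of 0.31 ± 0.06 on the log2 scale at adjusted p = 0.00541. PSMD3, a lid subunit, measured 58.0 and 57.1 FPKM in the Controls against 68.6 and 70.9 with siSIRT1, a change of 0.27 ± 0.06 on the log2 scale at adjusted p = 0.00701. In these 3 genes the siSIRT1 libraries were high and the groups did not overlap. PSMD9 (0.36, adjusted p = 0.0164) and PSMD8 (0.23, adjusted p = 0.0204) also rose. The call for PSMD3 was lost after median-of-ratios scaling, cyclic loess normalization and removal of the length trend. That for PSMD8 was less stable and held under only 5 of the 13 other settings.

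The 9 PSMD genes that did not pass the test had fold changes from 0.05 to 0.18 on the log2 scale. They include PSMD4, a receptor for ubiquitin chains, PSMD14, the enzyme that cuts the chain from the substrate, and PSMD2, the other scaffold of the base. All of their fold changes were above 0 as deposited, but under at least 1 other setting those of PSMD4, PSMD7, PSMD13 and PSMD14 were below 0, at the lowest -0.11 for PSMD4. PSMD4 and PSMD7 overlapped between the groups.

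The chaperones encoded by the PSMG genes assemble the core, acting as the pairs PSMG1 with PSMG2 and PSMG3 with PSMG4. The 4 genes all passed the test, and they did not move together. Of them, 3 rose (75%, all genes 24.0%) and PSMG4 fell (25%, all genes 13.1%). PSMG3 measured 20.4 and 19.1 FPKM in the Controls against 30.2 and 28.3 with siSIRT1, a change of 0.54 ± 0.07 (SE) on the log2 scale at adjusted p = 0.000819. Its partner PSMG4 measured 17.6 and 18.7 FPKM in the Controls against 14.5 and 15 with siSIRT1, a change of -0.28 ± 0.08 on the log2 scale at adjusted p = 0.0219. The partners were thus at similar levels in Control, and the siSIRT1 libraries were high for PSMG3 and low for PSMG4. PSMG1 measured 15.4 and 15.4 FPKM in the Controls against 20.5 and 22.0 with siSIRT1, a change of 0.44 ± 0.08 on the log2 scale at adjusted p = 0.00267. PSMG2 rose by 0.26 (adjusted p = 0.0154). The fall of PSMG4 was called under all 13 other settings but under only 1 of the 4 fits that left out a library, and the rise of PSMG2 was lost under 7 of the 13, median-of-ratios scaling among them.

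Alternative activators bind the core in place of the standard cap. PSME3, the nuclear activator of the family, measured 24.4 and 22.8 FPKM in the Controls against 30.9 and 30.5 with siSIRT1, with both siSIRT1 libraries high (log2 fold change 0.37 ± 0.07, adjusted p = 0.00420). PSME1 and PSME2 encode the interferon-inducible activator that works with the immunoproteasome. PSME1 measured 40.3 and 43.9 FPKM in the Controls against 43.9 and 43.7 with siSIRT1, a log2 fold change of 0.06 (95% interval -0.10 to 0.21, adjusted p = 0.542). PSME2 measured 65.1 and 65.4 FPKM in the Controls against 74.6 and 65.0 with siSIRT1, a log2 fold change of 0.09 (95% interval -0.08 to 0.26, adjusted p = 0.366). The groups overlapped for both genes, neither passed the test, and their fold changes were below 0 under other settings, cyclic loess normalization among them. PSME4, a large activator found in the nucleus, measured 24.7 and 26.9 FPKM in the Controls against 21.1 and 27.1 with siSIRT1, with overlap (log2 fold change -0.11, adjusted p = 0.495). PSMF1, an inhibitor of the core, measured 13.98 and 13.9 FPKM in the Controls against 18.3 and 17.1 with siSIRT1, with the siSIRT1 libraries high (log2 fold change 0.33 ± 0.08, adjusted p = 0.0126). The call for PSMF1 was lost after cyclic loess normalization.

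Of 15 genes whose proteins work with the proteasome without bearing a PSM symbol, 5 rose (33.3%, all genes 24.0%), 3 fell (20%, all genes 13.1%) and 7 did not pass the test. SEM1, a small lid subunit, measured 24.6 and 23.1 FPKM in the Controls against 39.2 and 35.1 with siSIRT1, a change of 0.62 ± 0.08 (SE) on the log2 scale at adjusted p = 0.000512. POMP, the maturation factor of the core, measured 23.3 and 24.8 FPKM in the Controls against 36.2 and 33.4 with siSIRT1, a change of 0.52 ± 0.07 on the log2 scale at adjusted p = 0.000959. Both were high in the siSIRT1 libraries, as were TXNL1 (0.54), FBXO7 (0.47) and the deubiquitinase UCHL5 (0.40). USP14, the other deubiquitinase of the cap, measured 23.2 and 23.8 FPKM in the Controls against 17.7 and 18.3 with siSIRT1 and fell by 0.37 on the log2 scale (adjusted p = 0.00455). ZFAND5, an activator of the proteasome, measured 21.5 and 22.0 FPKM in the Controls against 12.6 and 14.3 with siSIRT1 and fell by 0.66 (adjusted p = 0.000632). PAAF1, which binds base ATPases, fell by 0.32 (adjusted p = 0.0432), a call lost without the filter on low values and in 3 of the 4 fits that left out a library. The ubiquitin receptor ADRM1 measured 120 and 116 FPKM in the Controls against 137 and 116 with siSIRT1 and did not pass the test (0.10, adjusted p = 0.359).

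Of 15 genes that control the transcription of proteasome genes, 2 rose (13.3%, all genes 24.0%), 4 fell (26.7%, all genes 13.1%) and 9 did not pass the test. NFE2L1, which encodes the factor NRF1 that drives subunit genes when the proteasome is impaired, measured 112 and 117 FPKM in the Controls against 104 and 101 with siSIRT1. Its siSIRT1 libraries were the lower ones, but the log2 fold change of -0.16 ± 0.06 (SE) did not pass the test (adjusted p = 0.0632), whereas it passed as lower under 10 of the 13 other settings. The related factor gene NFE2L3 measured 56.2 and 53.1 FPKM in the Controls against 31.6 and 34.9 with siSIRT1 and fell by 0.70 (adjusted p = 0.000205). NGLY1, whose enzyme removes sugar chains from NRF1, fell by 0.39 (adjusted p = 0.0255, a call lost in each fit that left out a library), STAT3 fell by 0.35 (adjusted p = 0.00244) and MAFF fell by 0.48 (adjusted p = 0.0118). MAFK, a small MAF partner, rose by 0.41 (adjusted p = 0.00103), and VCP, the ATPase that extracts proteins from membranes and complexes, rose by 0.18 (adjusted p = 0.0350, a call lost under 11 of the 13 other settings).

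Of 10 genes of interferon signaling and peptide loading fixed as control genes of the immunoproteasome, JAK2 and NLRC5 were below the filter on low values. Of the 8 tested, TAP1 rose (12.5%, all genes 24.0%) and IFNGR2 fell (12.5%, all genes 13.1%). IRF1, an interferon-induced activator of PSMB9 and TAP1, measured 17.6 and 19.1 FPKM in the Controls against 17.4 and 16.4 with siSIRT1 and did not pass the test (log2 fold change -0.11, adjusted p = 0.320). IFNGR2, a chain of the interferon gamma receptor, measured 57.8 and 55.9 FPKM in the Controls against 40.6 and 43.8 with siSIRT1 and fell by 0.42 (adjusted p = 0.00147).

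Among genes for ubiquitin, RPS27A, which encodes ubiquitin fused to a ribosomal protein, rose by 0.39 (adjusted p = 0.00481). The polyubiquitin gene UBB did not pass the test (0.00, adjusted p = 0.976). Among shuttle receptors, which carry ubiquitinated cargo to the proteasome or to autophagy, RAD23B rose by 0.39 (adjusted p = 0.00165) and the autophagy receptor NBR1 fell by 0.49 (adjusted p = 0.00512). The shuttle gene DDI1 was not analysed here. Over the 50 genes of these lists that were tested, 11 rose (22%, close to the 24.0% of all genes), 10 fell (20%, all genes 13.1%) and 29 did not pass the test.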

How the data were processed

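Gene expression was measured by RNA sequencing of 2 Control and 2 siSIRT1 libraries of PANC-1 cells. The authors deposited a table of FPKM values per gene for each library. The submitters' processing notes name HISAT, Bowtie2, RSEM and ChIPseeker without versions or roles. The genome build and the use of strand in counting are not given in the sources used here. The members and gene lists were chosen with earlier results of these data known.

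Values were taken as log2(FPKM + 1), and the pseudocount of 1 shrinks the fold changes of low genes. Genes averaging 1 FPKM or more were kept (12191), which left out no proteasome gene. Groups were compared with limma 3.58.1 in R 4.3.3 (lmFit, then eBayes with a mean-variance trend, two-sided). P-values were adjusted by the Benjamini-Hochberg method over all genes tested at a threshold of 0.05. The script was tested on simulated data. Tables were joined and drawn with Python 3.11.15, pandas 2.3.3 and matplotlib 3.10.9.

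Per-library values were given for SIRT1, for the 12 subunit genes with the smallest adjusted p, for the 3 largest changes in each direction, for the catalytic subunits, PSME and PSMF1 genes, and for a gene that moved against its group. PSMA4, PSMA6, PSMC4, PSMC5, PSMC6, PSMD8, PSMD9, PSMG2 and TAP2 were added after their values were seen. From the other lists, the genes called and NFE2L1, POMP, ADRM1, IRF1 and TAP1 were named. UBB was added after its values were seen, and some genes of these lists are not reported here. Alternatives were a pseudocount of 0.1, no filter, median-of-ratios, upper-quartile, equal-sum, quantile and cyclic loess scaling, removal of a trend on transcript length or on GC content, a replicate block, eBayes without the trend, and leaving out each library in turn. Depth is not in the tables, so it was estimated from the value that 1 read adds to low genes. Gene positions and lengths came from GENCODE on GRCh37, and promoter windows from RefSeq on GRCh38.p14; coordinates were not converted between builds.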

Additional observations from a re-analysis of the deposited data

How the results depend on the processing

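SIRT1 was called lower under each of the 13 other settings and each fit that left out a library. The median log2 fold change of the 46 proteasome genes was 0.22 as reported, and it was 0.14 after median-of-ratios scaling, 0.15 after upper-quartile scaling, 0.16 with equal FPKM sums, 0.13 after quantile normalization, 0.11 after cyclic loess normalization, 0.086 with the length trend removed, with or without the replicate block, and 0.13 with the GC trend removed, with or without the block. The fits on GC content were chosen after seeing the data. Without each library in turn the median lay between 0.19 and 0.24. The number of proteasome genes called higher, 23 as reported, was 12 after median-of-ratios scaling, 15 after upper-quartile scaling, 14 after cyclic loess normalization, 12 with the length trend removed and 14 with the length trend removed in the blocked fit. The number called in either direction, 24 as reported, was 14 after median-of-ratios scaling. The number called lower, 1 as reported, was 2 after median-of-ratios, upper-quartile, equal-sum, quantile and cyclic loess scaling, with the GC trend removed (also with the block) and with the block alone, and 4 with the length trend removed (also with the block). Leaving out a library moved the number called higher between 7 (without Control replicate 2, 15.2% against 14.1% of all genes) and 27, the number called lower between 0 and 2, the number called in either direction between 7 and 29, and the number of all genes called, 4521 as reported, between 2691 and 4608. The labels give both groups the numbers 1 and 2, but nothing says that they mark a shared batch: the deviations of same-numbered libraries from their group means correlated with r = 0.12 over all genes and -0.03 over the proteasome genes, and a fit with the replicate block called 28 proteasome genes higher and 2 lower, against 28.6% and 15.7% of all genes. Directions turned for 10 proteasome genes, none of which had passed the test. PSMB1, PSMB3, PSMB4, PSMD4, PSMD7, PSMD13 and PSMD14 were below 0 under at least 1 setting, with lowest values of -0.15, -0.021, -0.07, -0.11, -0.026, -0.038 and -0.0065, and with the length trend removed 13 proteasome genes were below 0 in all. PSME1 moved to -0.025 after median-of-ratios scaling, -0.018 after upper-quartile scaling, -0.00354 with equal FPKM sums, -0.023 after quantile normalization, -0.049 after cyclic loess normalization, -0.14 with the length trend removed (with and without the block) and -0.035 with the GC trend removed (with and without the block), and without a library it lay between -0.00242 and 0.12. PSME2 moved to -0.017 after cyclic loess normalization and -0.13 with the length trend removed (with and without the block), and lay between -0.00534 and 0.19 without a library. The associated gene ADRM1 moved to -0.015 and -0.046 in the same fits and lay between -0.016 and 0.22. PSME4 lay between -0.28 and 0.068 without a library. The cause was not tested. The estimated depth of 8690000 to 9120000 reads and 2 libraries per group limit the fold that can be called: the median half-width of the 95% interval among the 22 proteasome genes that did not pass the test was 0.16 on the log2 scale.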
